A study of Mus musculus with 6 samples.

Results

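The cytosolic ribosomal protein genes encode the proteins that are built with ribosomal RNA into the small (40S) and large (60S) subunits of the ribosome outside mitochondria. Among the 31053 gene rows of the count tables, 83 carried such a symbol, that is Rpl or Rps followed by a number, or Rplp0, Rplp1, Rplp2 or Rpsa, with rows marked as pseudogenes left out. They were 31 proteins of the 40S subunit, 43 of the 60S subunit, the 3 proteins of the P stalk, and 6 paralogs: Rpl3l, Rpl7l1, Rpl10l, Rpl22l1, Rpl39l and Rps27l. The choice used names only and no measured value.

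The study profiled mouse embryonic stem cells (ESCs) that were parental or Oct1_cKO, a conditional knockout of Oct1, the transcription factor encoded by Pou2f1. Both genotypes were taken as undifferentiated ESCs and at day 3 and day 6 of a differentiation on 0.1% gelatin, with Bmp4 in N2B27 medium for 2 days and then Rspo3 with the BMP inhibitor LDN-193189 in DMEM for 4 days. Cells were lifted with trypsin and sequenced with a droplet kit that reads the 5′ end of each transcript, with 1 library for each of the 6 groups. The allele, the agent that removed Oct1 and the number of clones or cultures per group are not given in the sources used here. The sample titles of the 2 ESC libraries share a different number from those of the 4 others, so the ESC stage and that number cannot be told apart.

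Ribosomal proteins are needed in nearly equal numbers, and their mRNAs are among the most abundant in a growing cell. Many of these mRNAs begin with a terminal oligopyrimidine tract, a C at the first base followed by a run of C and T (U in the RNA), through which the mTOR pathway and Larp1 regulate their translation. Some proteins also act outside the ribosome: Rpl5 and Rpl11 bind Mdm2, the ubiquitin ligase of p53, when ribosome assembly is disturbed.

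The start sites are shown here because the tract sits there and because the genes below recur in the results. Each line gives 30 bases of the coding strand around the RefSeq transcript start in assembly GRCm38.p6, 15 before the start base and 15 from it, with the run of pyrimidines in capitals. In the first 6 the capitals open at the annotated start itself. In the paralog genes Rps27l and Rpl22l1 the C lies 1 and 3 bases after it.
Rpl35, 60S, chr2:39005117-39005146, minus strand: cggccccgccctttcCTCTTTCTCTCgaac
Rps21, 40S, chr2:180257364-180257393, plus strand: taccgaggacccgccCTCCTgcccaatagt
Rps27, 40S, chr3:90213634-90213663, minus strand: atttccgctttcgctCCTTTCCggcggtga
Rps6, 40S, chr4:86857353-86857382, minus strand: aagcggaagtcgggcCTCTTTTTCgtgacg
Rpl38, 60S, chr11:114668565-114668594, plus strand: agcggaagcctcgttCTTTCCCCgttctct
Rplp2, P stalk, chr7:141447636-141447665, plus strand: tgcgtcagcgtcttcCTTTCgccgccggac
Rps27l, paralog, chr9:66946071-66946100, plus strand: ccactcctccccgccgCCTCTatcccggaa
Rpl22l1, paralog, chr3:28805493-28805522, plus strand: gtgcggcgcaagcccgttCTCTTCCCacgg

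RefSeq start windows were matched for 63 of the 83 genes, with 75 starts, and a gene was counted if any of its starts had the match. A C at the start base followed by at least 4 pyrimidines stood in 13 of the 63 (20.6%), against 3.01% of 27025 genes and 0 of 69 mitochondrial ribosomal protein genes. With the C allowed up to 5 bases to either side, the counts were 29 of 63 (46.0%) and 21.2% of all 27025 genes. The octamer ATGCAAAT, the motif known for Oct factors, was searched on both strands from 250 bases before to 50 after the start. It was found for 0 of the 63 genes and for 1.97% of all 27025. At that share few of 63 genes would carry it, so its absence says little. These are matches of letters in a window, and annotated starts can differ by bases from the ones used in these cells.

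Cells with at least 1000 detected genes and at most 10% mitochondrial unique molecular identifiers (UMIs, each counting 1 captured molecule) were kept, 7096 of 11046 barcodes. The libraries held 530 to 1650 kept cells and 38935937 to 84128627 UMIs, with median depths of 30925 to 82544 UMIs per cell. Pairs of libraries shared at most 2 cell barcodes. Pou2f1 itself was measured at 30.1 counts per 1000000 UMIs (CPM) in parental and 21.5 in Oct1_cKO ESCs, 28.3 and 12.6 at day 3, and 30.9 and 16.04 at day 6. It was lower in each library labelled Oct1_cKO, by log2 ratios of -0.49, -1.17 and -0.95; whether its 5′ tags lie outside the deleted part is not known. Markers of naive pluripotency, which define ESCs, summed to 1714 and 1800 CPM in the ESC libraries, with 9 and 8 of 9 at 5 CPM or more, and to 75.8 to 317 CPM in the differentiated ones. The parental ESC library also held fibroblast markers at 1129 CPM (9 of 10 at 5 CPM or more), against 42.6 (3 of 10, with 1 at 0) in the Oct1_cKO one. With 1 library per group the genotypes cannot be tested within a stage, and no test across stages was run, so intervals cover counting error only, and differences are described by size. A gene was counted as higher or lower when its CPM in one library exceeded that in the other by at least 25%, or by 2-fold where stated, and the larger value was 20 CPM or more. Lists of other genes, such as those of ribosome biogenesis, translation factors and the p53 response, were counted from 5 CPM in the larger value. The shares of all genes given beside them kept the minimum of 20 CPM, so the 2 are not strictly alike.

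Ribosomal protein transcripts made up a large and fairly even part of the captured RNA of these cells. They took 25.6% of all UMIs in parental and 26.0% in Oct1_cKO ESCs, 26.7% and 28.2% at day 3, and 24.3% and 21.7% at day 6. The difference, Oct1_cKO minus parental, was 0.359 percentage points in ESCs, 1.47 at day 3 and -2.62 at day 6. Medians over cells had the same order, 25.5% and 26.2%, 26.6% and 28.0%, and 24.8% and 23.1%. With every cell thinned to 3000 UMIs, which left out 3 to 155 shallower cells per library, the medians were 25.5% and 26.2%, 26.6% and 28.0%, and 24.8% and 23.0%. The cells overlapped broadly: the middle 50% of cells spanned 21.99% to 27.7% in parental and 19.8% to 27.3% in Oct1_cKO cells at day 6. The lowest and highest library by this share were both Oct1_cKO libraries, of day 6 and day 3.

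**Figure D1:**
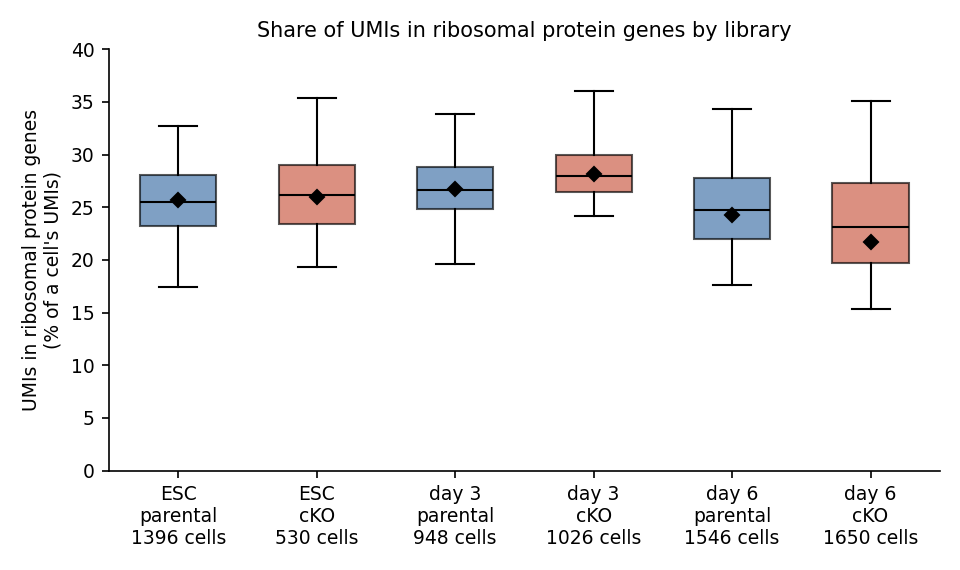
Percent of UMIs in the 83 cytosolic ribosomal protein genes in each library; boxes give the median and quartiles over kept cells, whiskers the range of all but the lowest and highest 5% of cells, and diamonds the share of the summed UMIs. The 2 day 3 libraries sit highest (medians 26.6% and 28.0%) and the Oct1_cKO day 6 library lowest (23.1%), with wide overlap between cells.

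The 40S genes took 11.4% and 11.97% of UMIs in parental and Oct1_cKO ESCs, 11.5% and 12.5% at day 3, and 10.7% and 9.77% at day 6. The 60S genes without the stalk took 12.6% and 12.4%, 13.3% and 13.7%, and 12.3% and 10.7%. The 60S and stalk genes together had 1.23 and 1.16 UMIs per 40S UMI in ESCs, 1.30 and 1.24 at day 3 and 1.253 and 1.199 at day 6, so this ratio was lower in the Oct1_cKO library of every stage. Of the 13 ribosomal protein genes above 20 CPM on chromosomes 1, 6, 8 and 11, where other genes had median Oct1_cKO to parental log2 ratios of -0.18, -0.26 and -0.21 at the 3 stages, 12 are 60S genes, and the part of this in the ratio was not tested. The paralogs together took 0.183% to 0.2503%.

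Levels differed between genes far more than between libraries. A 5′ tag is counted once per molecule whatever its length, so CPM values were not divided by length. How evenly different genes were captured is not known from these data. Rps2, a 40S protein, had the highest level in every library, with 9539 and 9902 CPM in ESCs, 8225 and 9312 at day 3, and 8025 and 8072 at day 6 (parental first). Rpl13 was next in 4 of the libraries, Rpl41 in Oct1_cKO ESCs and Rplp0 in Oct1_cKO cells at day 3. Rpl13a was the lowest of the subunit genes in each, with 547 CPM (95% interval 542 to 552) and 668, 616 and 703, and 544 and 545. In every library 80 of the 83 genes reached 20 CPM, the others being Rpl3l, Rpl10l and Rpl39l. Where rows share reads with pseudogene copies, how the counting divided those reads is not given in the sources used here, and Rpl and Rps genes have many such copies.

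In ESCs the group as a whole stood level between the genotypes, and a set of its shortest genes was higher in the Oct1_cKO library. Of the 80 genes that reached 20 CPM, 9 were at least 25% higher and 4 lower, where 11.1% of all 5340 genes were higher and 12.7% lower. The median log2 ratio was 0.02, against -0.01 for all genes, and none reached 2-fold, against 2.17% of all genes. With median-of-ratios scaling the split was 13 higher and 1 lower.

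The 9 higher genes were led by Rpl35 and Rps28. Rpl35, a 60S protein, was at 1305 CPM in parental and 2098 in Oct1_cKO ESCs, 1520 and 1696 at day 3, and 1459 and 1349 at day 6. Its log2 ratio in ESCs was 0.69 (0.67 to 0.70). Rps28, a 40S protein, had 1449 and 2281 CPM (0.65), Rpl39 of the 60S exit tunnel 1929 and 2985 (0.63), and Rps21 of the 40S subunit 2250 and 3463 (0.62). These 4 genes span both subunits and each separated the ESC libraries by more than counting error. Rps29 had 3340 and 5050 CPM (0.60), Rps27 1554 and 2295 (0.56), and Rpl37 2296 and 3357 (0.55). Rpl41, the shortest of all by the annotated coding length used here (138 bases), was at 5576 and 7178 CPM (0.36), and Rpl37a at 2528 and 3246 (0.36). The last is the only higher gene on chromosome 1, 6, 8 or 11. The 4 lower genes were Rpl19 (5889 and 4224 CPM, -0.48), Rps27a, which is made as a fusion with ubiquitin (6125 and 4816, -0.35), Rpl13 (6684 and 5256, -0.35) and Rpl26 (4089 and 3251, -0.33).

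Coding length, a property that was looked at after these values were seen, ordered the ESC ratios. The 9 genes with under 300 coding bases, Rpl41, Rpl39, Rps29, Rps28, Rpl38, Rps21, Rps27, Rpl37a and Rpl37, had a median log2 ratio of 0.56 (range 0.17 to 0.65), and 8 of them were higher by at least 25%. Among 169 other genes of that length the median was -0.02 and 18.9% were higher. The 27 ribosomal protein genes of 300 to 450 bases had a median of 0.10, the 19 of 450 to 600 bases -0.13, and the 22 longer ones -0.06. Spearman's rho between coding length and ratio was -0.64 over 77 genes and 0.16 over 5218 other genes, all points sharing the same 2 libraries.

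**Figure D2:**
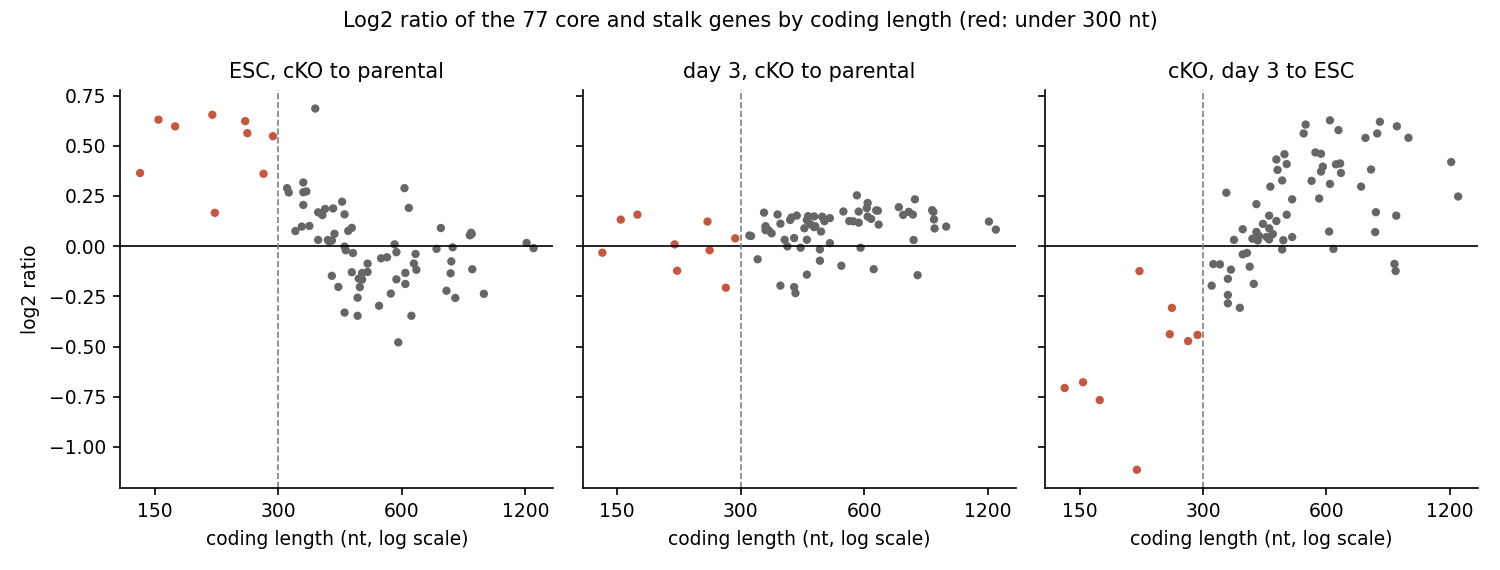
Log2 ratio of CPM against coding length in bases (log axis) for the 77 subunit and stalk genes, for Oct1_cKO over parental ESCs, Oct1_cKO over parental day 3 cells, and day 3 over ESC in Oct1_cKO cells; red points are genes under 300 bases. The red points sit high in the ESC panel (median 0.56), near 0 at day 3 (0.01) and low in the day 3 over ESC panel (-0.47). The ESC panel and the day 3 over ESC panel share the Oct1_cKO ESC library and are not independent.

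The short genes were higher within each ESC cluster that held at least 30 cells of both genotypes. These clusters split the cells of the same 2 libraries and are not separate evidence. Their median was 0.49, 0.58, 0.52 and 0.44 in 4 unnamed clusters and 0.60 in the epithelium-like one, with 6 to 9 of the 9 counted as higher, where 21.8%, 8.75%, 6.61%, 16.3% and 16% of all genes were. At day 3 and day 6 the same 9 genes had medians of 0.01 and 0.00. From ESC to day 3 their median was -0.47 in Oct1_cKO cells, with 7 of 9 lower, and 0.06 in parental cells. That step reuses the ESC libraries in which the short genes were picked out, so it restates the ESC difference. The ESC libraries also differed in depth (median 51732.5 and 70990.5 UMIs) and in mitochondrial share (5.34% and 6.11%), and the part of these in the short genes' ratio was not tested.

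At day 3 the group was slightly higher in Oct1_cKO cells and no gene of it stood out. The median log2 ratio was 0.11, against -0.05 for all genes, and 63 of 80 genes were above 0, against 40.3% of all 5148 genes. None was higher or lower by 25%, where 3.96% and 11.9% of all genes were. With TMM or median-of-ratios scaling the median was 0.21 and 2 genes were higher. The ratios ran from -0.23 for Rpl27 (1211 and 1030 CPM; interval -0.25 to -0.22) to 0.25 for Rpl9 (3301 and 3934 CPM; interval 0.25 to 0.26), both 60S proteins. Rpl7a (0.23), Rps3 (0.19), Rpl13a (0.19) and Rps2 (0.18) were also among the highest. The standard deviation of the log2 ratios was 0.11 over the group and 0.24 over all genes.

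Of the 17 genes below 0 at day 3, 13 lay on 4 chromosomes. Earlier results of these data showed parental cells that differ in their share of UMIs from chromosomes 1, 6, 8 and 11, so the genes were split by those. On these 4 all 13 genes were below 0, with a median of -0.12, where 92.8% of the 1288 other genes on them and 59.7% of all genes were. Among them were Rpl31, Rpl37a and Rpl7 on chromosome 1, Rpl13 on 8, and Rpl19, Rpl26, Rpl27, Rpl38 and Rps27a on 11. Of the 67 genes elsewhere 4 were below 0 (Rpl35a, Rpl41, Rps15a and Rps27), with a median of 0.12. The other genes on the 4 chromosomes had a median of -0.26, and those elsewhere 0.00.

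Cells were also sorted by a chromosome score, the mean log2 share of UMIs from chromosomes 1, 6 and 8 less that from chromosome 11, computed without the ribosomal protein genes and set against the median Oct1_cKO cell of the stage. Cells beyond 0.25 on either side scored high for the one or the other. In parental day 3 cells 53.2% scored high for chromosomes 1, 6 and 8 and 33.5% for chromosome 11, whereas 93.8% of the Oct1_cKO cells scored high for neither. Since the score is centred on the median Oct1_cKO cell, typical Oct1_cKO cells fall in that middle group by design. Parental cells in it were thereby picked to match them in these shares. Smaller ratios on the 4 chromosomes among those cells follow in part from the sorting. Between the 126 parental and 962 Oct1_cKO cells that scored high for neither, the 13 genes had a median of -0.02 and the 67 genes a median of 0.06, with 11 of the 67 below 0. The other genes on the 4 chromosomes still had a median of -0.12 in those cells, with 79.1% below 0. The share of UMIs in those cells was 27.3% and 28.2%. In ESCs the same split gave medians of -0.26 and 0.03 over all cells, all 4 genes called lower lying on the 4 chromosomes, and -0.02 and 0.05 in the cells that scored high for neither, where 0 of the 13 were called lower.

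At day 6 the group was lower in Oct1_cKO cells. Of 80 genes 67 were below a log2 ratio of 0, against 51.4% of all genes, and the median was -0.18, against -0.01. At the limit of 25%, 14 were lower and 1 higher, where 23.8% of all 6173 genes were lower and 23.4% higher, and none reached 2-fold, against 9.2% of all genes. The share of the group that was lower was thus under that of all genes, and most of its genes lay below 0 by small amounts. The split was 7 lower and 3 higher with median-of-ratios scaling, 9 and 3 with TMM scaling, 6 and 3 with each cell weighted alike, and 24 lower with the group itself left out of the total.

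The lower genes belonged to both subunits. Rpl38, a 60S protein, was at 2112 CPM in parental and 1458 in Oct1_cKO cells (log2 ratio -0.53), and Rpl26, at the exit of the peptide tunnel, at 4079 and 2892 (-0.50). Rps6, the 40S protein phosphorylated by S6 kinase, was at 2648 and 1957 CPM (-0.44), and Rps27a at 6518 and 4846 (-0.43). Rpl27 (-0.44), Rps7 (-0.39), Rpl23 (-0.38) and Rpl13 (-0.35) were also among the lower genes, and Rpl22l1 is described below. Rps19, the 40S protein mutated most often in Diamond-Blackfan anaemia, was at 3672 and 4425 CPM (0.27), with Rps26, Rpl41 (0.22) and Rps28 (0.19) also above 0.

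Rpl5, which carries 5S ribosomal RNA together with Rpl11, was at 1941 and 1792 CPM in ESCs, 2550 and 2711 at day 3, and 2581 and 1942 at day 6, where its log2 ratio of -0.41 passed the limit. Rpl11 was at 2693 and 2582, 3485 and 3928, and 3431 and 2815, and its ratio of -0.29 at day 6 did not pass. Of the 14 lower genes, 9 were on chromosomes 1, 6, 8 and 11, where all 13 were below 0 with a median of -0.38. The 67 elsewhere had a median of -0.14. In the 277 parental and 1425 Oct1_cKO cells that scored high for neither, the medians were -0.29 and -0.14 and the shares of UMIs 23.9% and 21.6%.

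**Figure D3:**
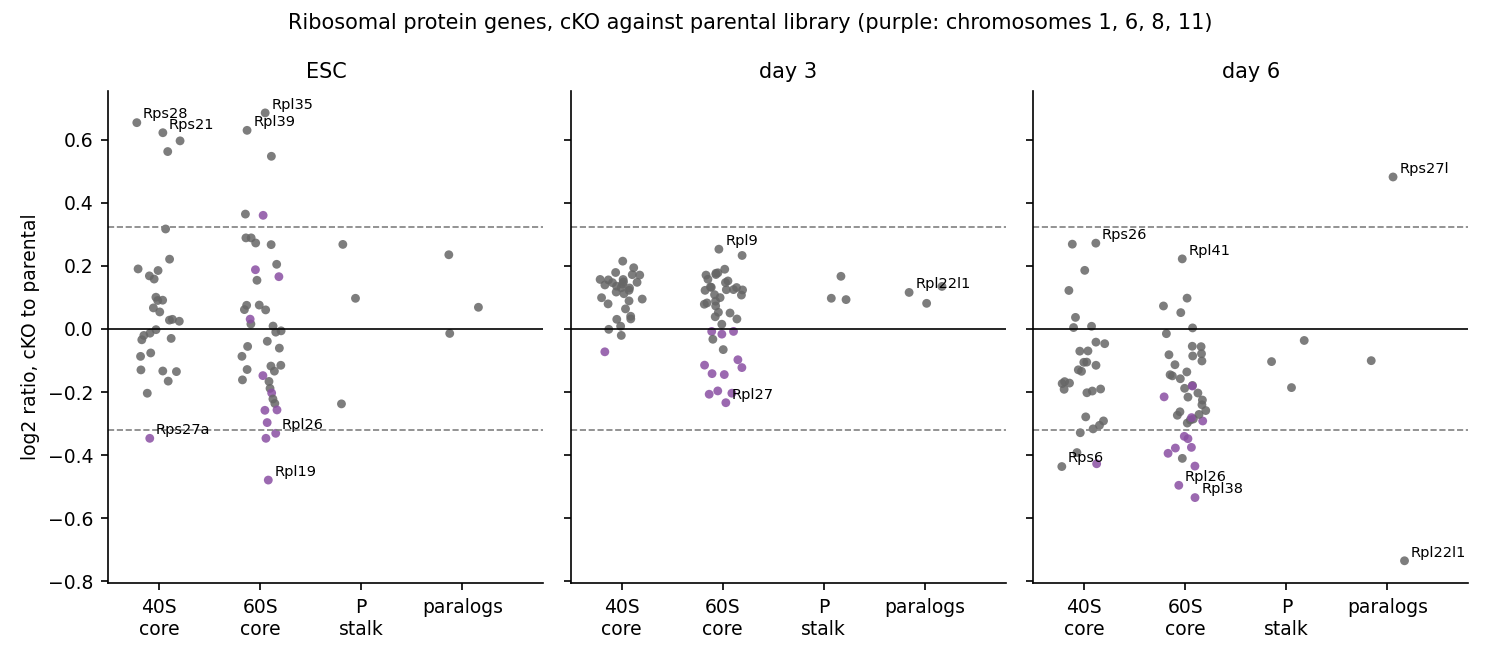
Log2 ratio of CPM, Oct1_cKO over parental, for each ribosomal protein gene with at least 20 CPM, by stage and class (40S, 60S, P stalk, paralogs); dashed lines mark the limit of 25% and purple points are genes on chromosomes 1, 6, 8 and 11. Values spread most in ESCs, lie mainly above 0 at day 3 (63 of 80) and mainly below 0 at day 6 (67 of 80).

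From day 3 to day 6 the group was lower in both genotypes, with more genes past the limit in the Oct1_cKO libraries; that difference between the genotypes was not tested. In parental cells 14 genes were at least 25% lower at day 6 than at day 3 (by the ratio of the 2 levels) and 0 higher, where 23.1% and 38.2% of all genes were, and the median log2 ratio was -0.12 against 0.12 for all genes. In Oct1_cKO cells 50 were lower and 0 higher, where 27.6% and 44.2% of all genes were, and the median was -0.37 against 0.19. Scaling by TMM moved the median of all genes to -0.15 and -0.12. Relative to that median the group stood at -0.24 and -0.56 with total UMIs and at -0.20 and -0.52 with TMM, while the counts of lower genes became 46 and 75; with each cell weighted alike they were 6 and 25.

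The P stalk, which recruits elongation factors to the 60S subunit, was lower at day 6 for all 3 proteins in both genotypes. Rplp1 was at 6480 CPM at day 3 and 4043 at day 6 in parental cells (log2 ratio -0.68) and at 7276 and 3554 in Oct1_cKO cells (-1.03). Rplp0 was at 7460 and 5132 (-0.54), and at 7981 and 4777 (-0.74). Rplp2 had log2 ratios of -0.33 and -0.46. Rps12, a 40S protein, was at 4961 and 3288 CPM (-0.59), and at 5430 and 2919 (-0.90). In Oct1_cKO cells Rplp1 and Rpl22l1 were the only genes of the group to pass 2-fold, where 7.1% of all genes were 2-fold lower.

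From ESC to day 3 parental cells had 8 genes higher and 2 lower, where 31.3% and 24.9% of all genes were, and Oct1_cKO cells had 25 higher and 7 lower, where 33.2% and 30.2% were. Leaving mitochondrial UMIs out of the total made the parental split 7 and 4. In parental cells Rpl22l1 (0.64), Rpl7 (0.51), Rps6 (0.47), Rpl27 (0.45) and Rpl5 (0.39) were highest, and Rps28 (-0.47) and Rps29 (-0.33) lowest. In Oct1_cKO cells Rpl15 (0.63), Rpl7 (0.62), Rpl11 (0.61) and Rpl5 (0.60) were among the highest. Rps28 was the 1 gene past 2-fold, where 11.3% of all genes were 2-fold lower, at 2281 CPM in ESCs and 1054 at day 3 (-1.11), followed by Rps29 (-0.77), Rpl41 (-0.71) and Rpl39 (-0.68).

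At day 6 a pair of paralogs differed between the genotypes while the genes they resemble stood nearly level. Rpl22l1 (ENSMUSG00000039221, chromosome 3), which can take the place of Rpl22 in the ribosome, was at 561 and 661 CPM in ESCs, 872 and 945 at day 3, and 786 and 472 at day 6. At day 6 it was 1.66-fold lower in Oct1_cKO cells (log2 ratio -0.74, interval -0.76 to -0.72), the lowest ratio of any subunit gene or paralog above 20 CPM. Rpl22 itself was at 1601 and 1540 CPM at day 6. Rpl22l1 gave 32.9% of the UMIs of the pair in parental and 23.5% in Oct1_cKO cells at day 6, and 30.8% and 32.0% at day 3.

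Rps27l (ENSMUSG00000036781, chromosome 9), a relative of Rps27 known as a target of p53, went the other way. It was at 1008 and 1057 CPM in ESCs, 1193 and 1310 at day 3, and 877 and 1226 at day 6. The day 6 ratio was 1.40-fold (log2 0.48, interval 0.47 to 0.50), and it was the 1 gene of the group counted as higher there. Rps27 was at 1606 and 1492 CPM at day 6. The Rps27l share of the pair was 35.3% and 45.1% at day 6 and, with Rps27 higher in Oct1_cKO ESCs, 39.4% and 31.5% in ESCs.

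In each of the 6 day 6 clusters with at least 30 cells of both genotypes, the Rpl22l1 ratio was below 0 and the Rps27l ratio above 0. The Rpl22l1 ratios were -0.52 in the somite-like cells, -0.71 in the epithelium-like cells and -0.64 to -0.20 in 4 unnamed clusters. The Rps27l ratios were 0.49, 0.28 and 0.08 to 0.42. Both paralogs were at their lowest day 6 level in the parental neuron-like cluster, with 261 CPM of Rpl22l1 (15.9% of its pair) and 361 CPM of Rps27l (14.5%). Parental epithelium-like cells had 597 CPM of Rpl22l1 and 1118 of Rps27l. Parental neural progenitor-like, somite-like and naive pluripotency-like cells had 763, 922 and 955 CPM of Rpl22l1 and 777, 795 and 890 of Rps27l. The part of cell make-up in the library ratios of both was not tested.

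**Figure D4:**
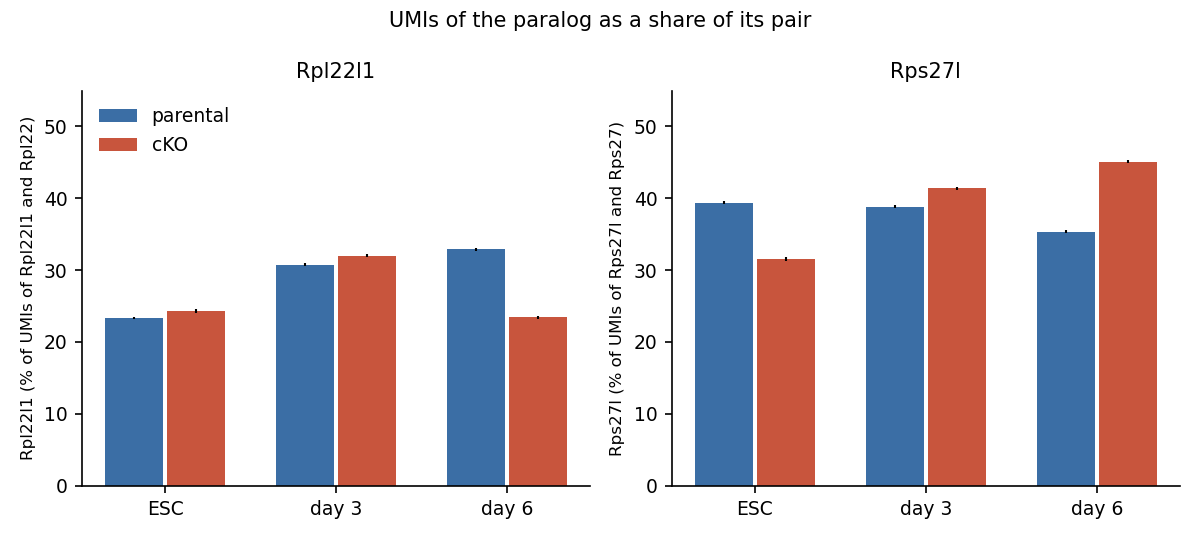
Paralog UMIs as a percent of the UMIs of paralog and parent gene together, for Rpl22l1 with Rpl22 and Rps27l with Rps27 in each library, with exact binomial 95% intervals (counting error only). At day 6 the Rpl22l1 share is lower (23.5% against 32.9%) and the Rps27l share higher (45.1% against 35.3%) in Oct1_cKO cells.

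The scarce paralogs were at their highest in ESCs. Rpl39l, a relative of Rpl39, was at 7.19 and 19.9 CPM in ESCs (560 and 776 UMIs), 1.23 and 2.53 at day 3 (96 and 213), and 1.17 and 0.029 at day 6 (81 and 2). Its log2 ratio was 1.47 (1.31 to 1.63) in ESCs and 1.04 (0.68 to 1.40) at day 3. The ESC difference was not shared by all clusters. It was 6.33 and 19.8 CPM in the one led by Foxd1 and 11.6 and 25.1 in the one led by Pou2f3. It was 11.3 and 11.4 in the one led by Ripply3, and 6.41 and 7.12 in the epithelium-like one. A cluster led by Calb2, with 292 parental and 0 Oct1_cKO cells, had 0.396 CPM of Rpl39l and 282 of the 708 parental ESC UMIs of Rpl10l. The day 6 ratio of Rpl39l, -5.32, had an interval of -8.39 to -3.42, and 80 of the 81 parental UMIs came from the 95 cells of the naive pluripotency-like cluster. Rpl10l, a relative of Rpl10, was lower in Oct1_cKO cells throughout, at 9.09 and 4.06 CPM, 3.72 and 1.99, and 0.462 and 0.029. Its log2 ratios were -1.16 in ESCs, -0.90 at day 3 and -3.98 at day 6 (interval -7.09 to -2.01), and 29 of 32 parental day 6 UMIs were in that same cluster, which held 11 Oct1_cKO cells.

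Rpl3l, best known from muscle, gave 75 and 55 UMIs in ESCs, 28 and 29 at day 3, and 4 and 0 at day 6, too few for a ratio at the last stage. Rpl7l1 was at 239 and 237 CPM, 230 and 244, and 184 and 172, and none of its 3 genotype ratios passed the limit. Rpl39l and Rpl10l are close copies of Rpl39 and Rpl10, which have far more reads, so part of their counts can be reads placed between copies.

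Clusters were built for each stage without the ribosomal protein genes and named from marker lists. At day 6 the naive pluripotency-like cluster had the highest share of UMIs in the group among clusters of ordinary depth with at least 30 cells of a library, 27.7% in parental cells. Somite-like cells had 25.1% in parental and 23.2% in Oct1_cKO cells, neural progenitor-like cells 23.8%, epithelium-like cells 22.2% and 20.1%, and neuron-like cells 20.99%. In ESCs a fibroblast-like cluster (124 parental and 3 Oct1_cKO cells) had 20.3% and the epithelium-like cluster 23.0% and 23.3%. Without the fibroblast-like cells the ESC median ratio was -0.01, with 9 higher and 4 lower genes. At day 3 the highest share was in an unnamed cluster led by Lgals3, Prph and Ddit3, with 31.4% and 33.7%. Its cells had a median of 0.155% and 0.121% mitochondrial UMIs, against 3.97% and 4.17% over all cells of those libraries, and the part of this in the share was not tested. The streak and presomitic-like cluster led by Usp26 and Fgf8 (193 and 46 cells) had 25.4% and 27.6%. Another of that name, led by Hoxb1 and Hoxb2, had 26.4% in its 270 parental cells and held 1 Oct1_cKO cell.

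The genotypes could be set side by side within 6 clusters at day 6, and the Oct1_cKO share was lower in 5, with differences of -2.10 to -0.59 percentage points. The exception was an unnamed cluster of shallow cells (113 and 465 cells, 26.0% and 27.6%), led by AY036118, Gm42418 and Lars2. At day 3 the Oct1_cKO share was higher in 5 of 6 clusters and in ESCs in 4 of 5, shallow clusters included. The make-up of the libraries differed at every stage. In ESCs, unnamed clusters led by Rhox5, Lef1 and Calb2 held 324 and 6, 156 and 8, and 292 and 0 cells (parental first). At day 3 the naive pluripotency-like cluster held 108 and 8, the streak and presomitic-like one led by Hoxb1 270 and 1, and an unnamed one led by Adgrb2 16 and 237. At day 6 neuron-like, neural progenitor-like and naive pluripotency-like cells were nearly all parental (65 and 6, 315 and 5, and 95 and 11 cells), and 151 and 304 cells were epithelium-like. An unnamed cluster with 11 of the 12 epithelium markers, none among its leading genes, held another 52 and 369. Summed neural progenitor markers were at 1261 and 60.1 CPM (9 and 3 of 9 at 5 CPM or more) and epithelium markers at 2386 and 6281 CPM (10 and 12 of 12). Fewer cells of a type and less RNA per cell cannot be told apart in the library sums. The part of make-up in the genotype ratios of each stage was not tested beyond the clusters named.

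**Figure D5:**
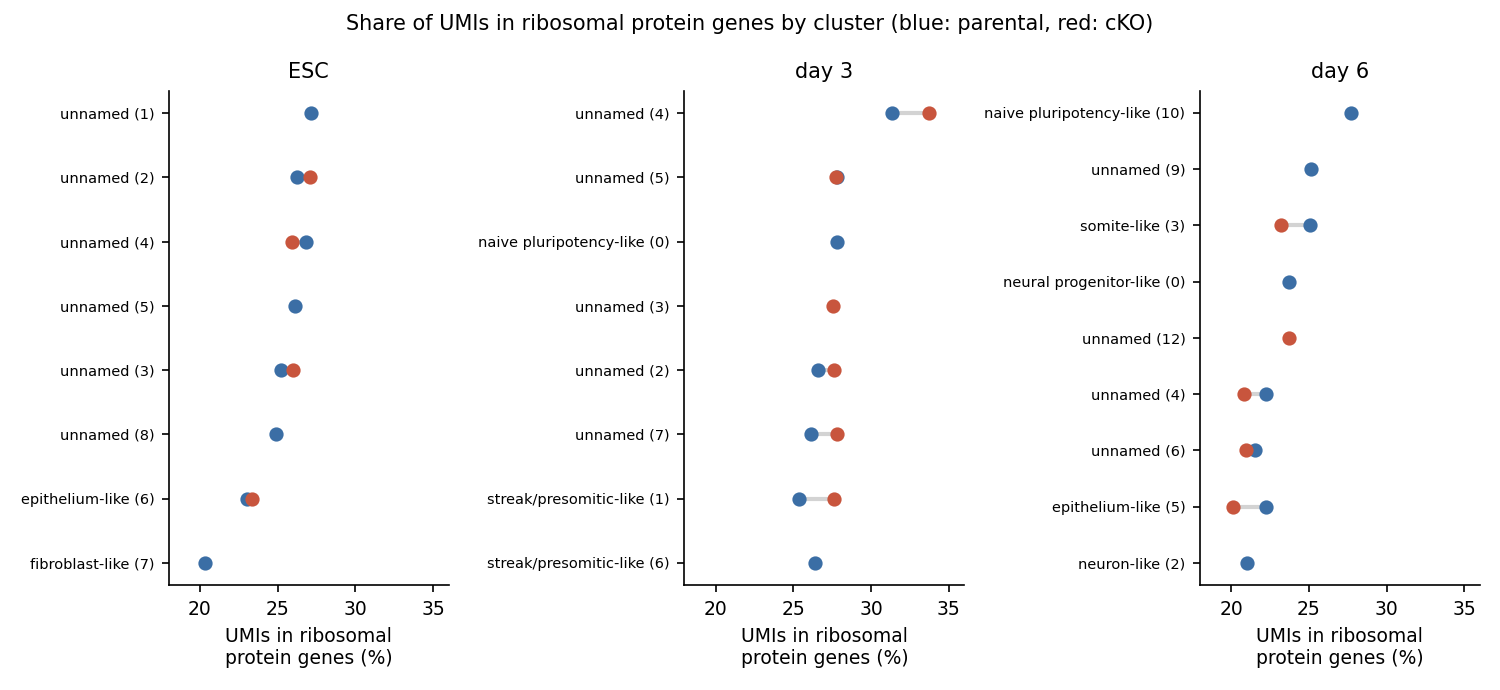
Percent of UMIs in ribosomal protein genes for each cluster with at least 30 cells of a library, by stage (parental blue, Oct1_cKO red); shallow clusters are not drawn, and the number in brackets is the cluster's. At day 6 values run from near 20% in epithelium-like Oct1_cKO cells to 27.7% in naive pluripotency-like parental cells.

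Stalk genes also differed between day 6 clusters. Rplp1 was at 5428 CPM in the parental naive pluripotency-like cells and 2888 in the parental neuron-like cells, and between 3164 and 4941 in the cells of each genotype in the other clusters. Rplp0 was at 6832 CPM in the naive pluripotency-like cells, above the 4176 to 5789 of the others.

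Genes that build ribosomes were lower at day 6 than at day 3 by more than the ribosomal protein genes were. Of 32 ribosome biogenesis genes, 31 in parental and 30 in Oct1_cKO cells were at least 25% lower at day 6, where 23.1% and 27.6% of all genes were, with 18 and 19 past 2-fold, where 4.75% and 7.1% were, and medians of -1.04 and -1.03. Among them were Nolc1 (-1.45 and -1.75), Rrp12 (-1.63 and -1.94) and Dkc1 (-1.28 and -1.99). Ribosomal protein UMIs per biogenesis UMI were 28.7 and 34.1 in ESCs, 25.5 and 30.7 at day 3, and 50.1 and 55.1 at day 6. The value was higher in the Oct1_cKO library of each stage, but within shared day 6 clusters it went both ways. It was lower in Oct1_cKO cells of the somite-like (51.3 and 40.7, parental first) and epithelium-like (55.6 and 52.6) clusters. In the unnamed clusters it was 62.9 and 45.4, 77.8 and 71.7, 48.1 and 54.96, and 61.9 and 77.7. From day 3 to day 6 the RNA polymerase I genes, which serve ribosomal RNA synthesis, had medians of -0.71 in parental and -0.86 in Oct1_cKO cells over 14 genes. The 20 genes of the translation factor list had medians of -0.15 and -0.51.

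Between the genotypes the biogenesis genes had medians of -0.25, -0.09 and -0.27 in ESCs, day 3 and day 6, with 12, 7 and 13 of 32 lower, where 12.7%, 11.9% and 23.8% of all genes were, and 0 higher. Within the shared day 6 clusters their medians went both ways, at 0.28 in somite-like cells, with 24 of 32 above 0, and -0.01 in epithelium-like cells. In the unnamed clusters they were 0.39, -0.04, -0.17 and -0.23. The part of the cell make-up in the library value was not tested. The 77 mitochondrial ribosomal protein genes had medians of -0.20, 0.0048 and -0.12. Of the 20 genes of the translation factor list, which also holds the nucleolar Npm1, 6 were lower at day 6, where 23.8% of all genes were, and 0 higher. Among the 6 were Npm1 (-0.66) and Eef1a1, the main elongation factor, at 6697 and 4932 CPM (-0.44).

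Of 10 p53 response genes with at least 5 CPM, 9 were at least 25% higher in Oct1_cKO cells at day 6, with a median of 0.80. Of all genes with at least 20 CPM, 23.4% were. Trp53inp1 was at 35.0 and 103 CPM (1.56), the cell cycle inhibitor Cdkn1a at 139 and 372 (1.42), and Mdm2 at 79.5 and 188 (1.24), while Eda2r was lower (-1.62). The list had medians of -0.04 in ESCs and 0.16 at day 3. In the 6 shared day 6 clusters its medians were 0.20 to 0.85. The Rps27l ratio was above 0 in these 6 and passed the limit in 2 of them, and whether the list and Rps27l are linked was not tested.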

How the data were processed

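The deposited files hold raw UMI counts per gene and cell barcode, made by the authors with Cell Ranger (version 3.1.0 per the file headers) on mm10, per the submitters' processing notes. From them, counts of kept cells were summed per library, and per library within a cluster, and divided by the total to give CPM. Barcodes with under 1000 genes or over 10% mitochondrial UMIs were left out. Each group has 1 library, so CPM have exact Poisson and ratios exact conditional binomial 95% intervals, which cover counting error only; the code was tested on simulated data. Clusters came from scanpy 1.11.5 (2000 variable genes without the ribosomal protein genes, 30 components, 15 neighbours, Leiden resolution 0.8) with Python 3.11.15, scipy 1.17.1 and igraph 0.11.9. A cluster was named from a marker list only with at least 3 supporting markers, more than any other list had, at least 1 of them among its 10 leading genes with no other list holding more there, and not at low depth. Doublets were not removed. Scrublet, tried on each library, marked 1 to 12 cells, too few to act as a filter.

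edgeR 4.0.16 (TMM) and DESeq2 1.42.0 (median of ratios), in R 4.3.3, gave scaling factors for alternatives only. Other alternatives were the total without mitochondrial or ribosomal protein UMIs, all barcodes, a stricter cell filter, other CPM minimums, equal weight per cell, thinning, and other cluster settings. Genes named are the 12 highest and lowest ratios per genotype comparison, 5 per time step, all paralogs and stalk genes, Rpl5, Rpl11, Rps27a, and 3 per other list with at least 5 CPM; levels named outside these, such as Rps2, were chosen after their values were seen. The genes and lists were chosen with earlier results of these data known. Coding lengths and chromosomes are from the GENCODE mouse annotation (GRCm38), and start sequences are from RefSeq GRCm38.p6. Handling of reads shared by near-identical copies is not given in the sources used here. A few genes that the naming rule covers are not reported here by name.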

Additional observations from a re-analysis of the deposited data

Results flagged for a closer look

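The share of UMIs in ribosomal protein genes differed between the genotypes in opposite directions across stages. Oct1_cKO minus parental, it was 0.359 percentage points in ESCs, 1.47 at day 3 and -2.62 at day 6. Each value compares 1 library with 1 library, and the difference between stages was not tested.

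Rows marked as ribosomal protein pseudogenes, 9 in all and outside the group described, had counts in every library. Together they were at 153 and 114 CPM in parental and Oct1_cKO ESCs, 148 and 158 at day 3, and 123 and 111 at day 6, each below the level of Rpl13a, the lowest subunit gene.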

How the results depend on the processing

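No paired analysis was possible because the groups compared within a stage share only 1 replicate number; a fit of genotype over the 3 stages with stage as a block was not run. The main limit is that same single library: no spread between cultures is known, and counting intervals are narrow beside it. Direction was checked only for named ribosomal protein genes past the 25% limit at 20 CPM or more. None of the alternatives run turned it for those. Smaller ratios, such as those between the genotypes at day 3, were not checked. The group median kept its sign except in ESCs, where 0.02 became -0.01 without the fibroblast-like cells. Of 727 values of 63 named ratios under alternatives, 696 stayed on their side of the 25% limit and 31 fell short of it.

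At day 3 the median log2 ratio was 0.21 with TMM and with median-of-ratios factors, with 2 genes higher under each, and 0.14 with the group left out of the total. At day 6 the median was -0.11 with TMM, -0.10 with median-of-ratios, -0.23 with the group left out and -0.089 with equal weight per cell. The day 6 counts of lower genes were 9, 7, 24 and 6, and those of higher genes 3 with TMM, median-of-ratios or equal weight, 2 with a stricter cell filter and 0 for subunit and stalk genes alone. In ESCs 1 gene was lower with median-of-ratios and 2 with equal weight. Without the shallow clusters, an alternative chosen after seeing the data, day 6 had 18 lower genes and a median of -0.20, and ESCs 10 higher and 4 lower.

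From ESC to day 3 parental cells had 4 lower genes without mitochondrial UMIs or at a minimum of 5 CPM, and 1 with the group left out or with all barcodes. From day 3 to day 6 the parental median was -0.35 with TMM, -0.36 with median-of-ratios and -0.070 with equal weight, with 46, 47 and 6 lower genes. In Oct1_cKO cells it was -0.64, -0.63, -0.50 with the group left out and -0.24 with equal weight, which left 25 lower genes. The cause of these shifts was not tested. With more variable genes the highest day 6 cluster share was 28.6%, in an unnamed cluster of 32 cells led by Gpnmb, and the naive pluripotency-like cluster stayed at 27.3%.

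The library shares of UMIs moved by more than counting error but kept the order of the genotypes at each stage. In the order ESC, day 3 and day 6, parental then Oct1_cKO, they were 27.1% and 27.7%, 27.8% and 29.4%, and 25.2% and 22.7% without mitochondrial UMIs, and 25.6% and 26.5%, 26.8% and 28.6%, and 25.1% and 23.7% with equal weight per cell. They were 25.02% and 25.1%, 26.4% and 28.0%, and 23.9% and 21.3% with all barcodes, and 25.8% and 26.6%, 26.9% and 28.2%, and 24.4% and 21.98% with a stricter cell filter. For subunit and stalk genes alone they were 25.5% and 25.8%, 26.5% and 27.9%, and 24.1% and 21.5%, and without shallow clusters 25.6% and 25.9%, 26.7% and 28.2%, and 24.1% and 21.2%. Without the cells Scrublet marked, the Oct1_cKO shares were 25.98% in ESCs and 28.2% at day 3.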
